A study of Mus musculus with 6 samples.

Results

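The 8 genes described here encode the core of the Notch pathway. They are the receptors Notch1 and Notch2, the receptor-cleaving protease Adam10, the DNA-binding factor Rbpj, the Mastermind coactivators Maml1, Maml2 and Maml3, and the target gene Hes1. They were taken by symbol from an RNA-seq table of sorted bone marrow megakaryocytes (MKs), where they are 8 of 16579 genes, and all 8 lay above the filter on low counts. They were listed when genotype results of the same libraries were already known, so their genotype differences are given as a description with no test.

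Notch receptors are surface proteins that bind Delta-like and Jagged ligands on a neighbouring cell. Ligand binding exposes the receptor to Adam10, gamma-secretase then cuts it within the membrane, and the freed intracellular part enters the nucleus, where it joins Rbpj and a Mastermind protein to switch on genes such as Hes1. Without that signal Rbpj sits on DNA with corepressors. In blood formation Notch1 is best known for T-cell commitment and Notch2 for marginal zone B cells, and Notch signals have also been studied in MK fate.

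The mice were 3 months old, and 6 libraries were made from their sorted marrow MKs, 3 labelled Becn1f/f and 3 labelled Becn1f/f;Pf4-iCre. Both genotypes carry floxed alleles of Becn1, an autophagy gene, and only Becn1f/f;Pf4-iCre mice carry Pf4-iCre, a Cre recombinase driven by the promoter of a platelet chemokine that is active in the MK lineage. The labels name no Cre in the controls, so the recombinase and the deletion cannot be told apart. The labels do not say whether each library came from a separate mouse, so p-values measure only the spread between these libraries, which may be technical.

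The estimated counts deposited by the authors summed to 16467560 to 17156728 per library. Counts scaled by the trimmed mean of M-values (TMM) and by library size are called normalized counts (CPM) here, and comparisons between genes use the deposited FPKM, which also corrects for transcript length. Becn1, the deleted gene, had 127.5, 108.8 and 118.7 CPM in the Becn1f/f libraries and 106.4, 104.4 and 109.8 CPM in the libraries labelled Becn1f/f;Pf4-iCre. The groups overlapped, the log2 fold change was -0.15 (SE 0.12, edgeR quasi-likelihood test, adjusted p = 0.94), and an exact two-sided permutation test of the CPM values gave p = 0.2, where 3 against 3 libraries cannot go below 0.1. Becn1 therefore does not separate the labels in this table, and every direction below is drawn from the labels. By other measurements, the paper reports lower Becn1 mRNA (RT-qPCR) in CD41-positive marrow cells of Becn1f/f;Pf4-iCre mice. It also reports no detectable Becn1 protein in their platelets.

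Megakaryocyte markers were checked next. Itga2b (CD41) lay at 142 to 187 CPM and Itgb3 at 79.8 to 143 CPM, whereas the platelet genes Pf4 (2.08 to 6.73 CPM), Gp1ba (3.68 to 7.27 CPM) and Gp9 (1.13 to 1.78 CPM) were low and Gp6 and Mpig6b fell below the filter. Pf4 had 3.76, 6.73 and 4.12 CPM in Becn1f/f and 3.06, 2.11 and 2.08 CPM in Becn1f/f;Pf4-iCre libraries. Its log2 fold change was -1.01 (SE 0.29, edgeR unadjusted P = 0.0045, adjusted p = 0.42). Of 17 tested MK and platelet markers 7 were above 0 and 10 below. Only Pf4 passed a fold of 1.5 with an unadjusted P under 0.05, beside 2.3% of all tested genes. The 19 MK and platelet markers took 0.235% to 0.488% of normalized counts, most of it from Thbs1 (mean FPKM 519), and their summed CPM was higher in replicate 1 of each genotype (4884 and 4344) than in the other 4 libraries (2351 to 3130). That pattern is largely that of Thbs1, at 4472 and 3951 CPM in replicate 1 and 2004 to 2775 CPM in the other 4 libraries. Neutrophil markers took 1.15% to 1.90% of normalized counts, and per transcript length S100a8 was the highest of them (mean FPKM 9482). The libraries thus held RNA of other marrow cells, and in such bulk samples fewer cells of a type and less RNA per cell cannot be told apart.

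Per transcript length, Notch2 was the most abundant of the 8 genes, with a mean of 62.5 FPKM over the 6 libraries, above 90.8% of the genes in the table. Adam10 followed at 49.6 FPKM, Rbpj at 34.4, Notch1 at 34.0, Maml1 at 17.9, Maml3 at 3.83, Hes1 at 2.06 and Maml2 at 1.70 FPKM. Both receptors, the protease and Rbpj thus ranked well above the coactivators Maml2 and Maml3 and the target gene. Neighbours in this order were separate across all 6 libraries except for 3 pairs whose ranges overlapped. Notch2 exceeded Adam10 in 6 of 6 libraries although their ranges overlapped. Rbpj exceeded Notch1 in 4 of 6, and Hes1 exceeded Maml2 in 4 of 6. The place of Maml2 rests on the length used for its FPKM, since its mean CPM (25.0) was close to that of Maml3 (24.0).

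**Figure D1:**
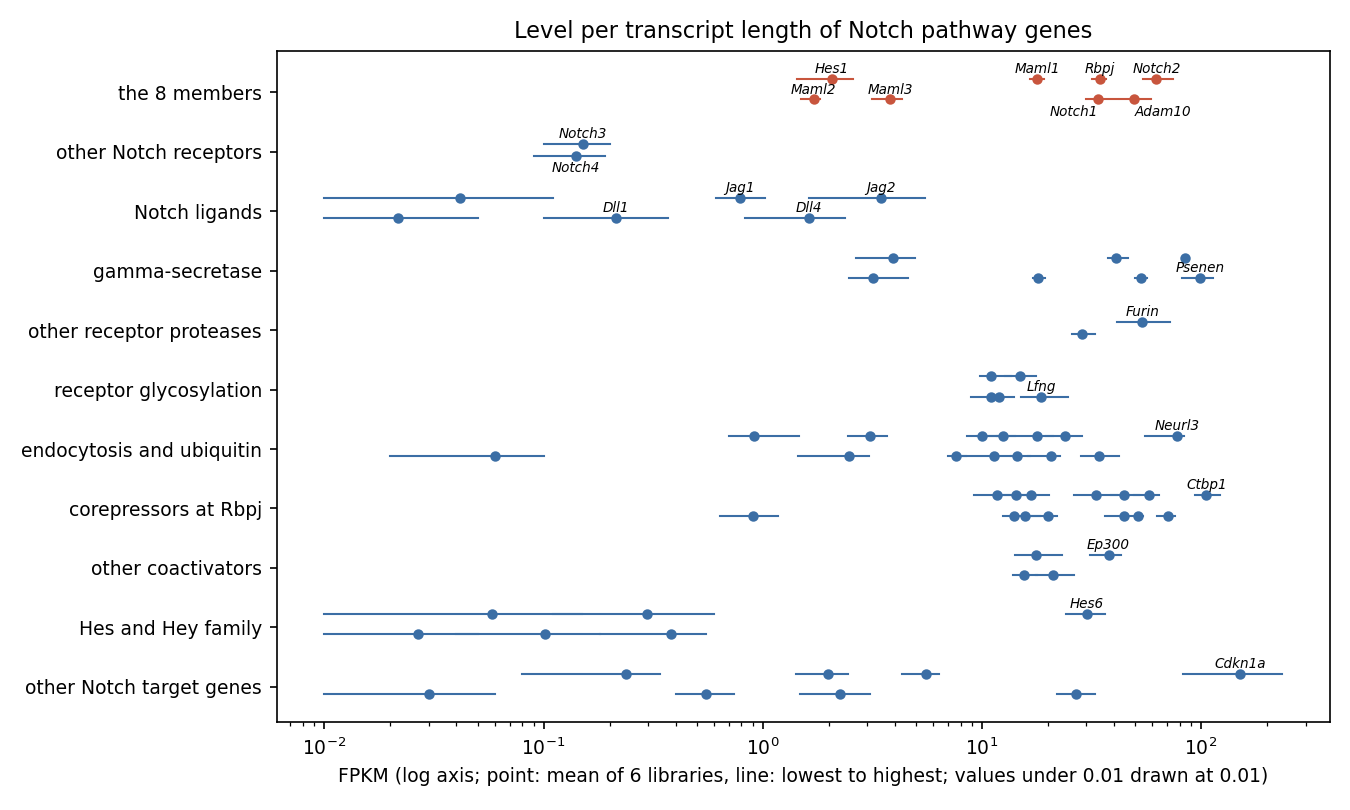
FPKM of the 8 genes (red) and of 68 other Notch pathway genes (blue) on a log axis, grouped by role, where each point is the mean of 6 libraries and each line runs from the lowest to the highest library. Notch2 stood at 62.5 FPKM and the other receptors, Notch3 and Notch4, at 0.152 and 0.140 FPKM.

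The receptors came first in the comparison of genotypes. Notch2 had 574, 570 and 608 CPM in the Becn1f/f libraries and 778, 675 and 623 CPM in the Becn1f/f;Pf4-iCre libraries. All 3 Becn1f/f;Pf4-iCre values lay above all 3 Becn1f/f values, and Notch2 was the only one of the 8 genes whose CPM did not overlap between the genotypes. The means were 584 ± 20.9 and 692 ± 78.8 CPM (SD, n = 3), a log2 fold change of 0.24 (SE 0.14), which was 0.15 without Becn1f/f;Pf4-iCre replicate 1, the highest library. On the FPKM scale the groups overlapped, with 54.5, 56.8 and 61.7 FPKM in Becn1f/f and 74.1, 66.8 and 61.3 FPKM in Becn1f/f;Pf4-iCre.

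Marker sums of macrophages and erythroid cells did not overlap between the labels, while those of the other listed cell types did. Summed CPM of 14 macrophage markers, led by Csf1r (mean FPKM 133), was 839 to 877 in Becn1f/f and 893 to 1085 in Becn1f/f;Pf4-iCre libraries, and 11 of the 13 tested had a fold change above 0, 4 of them called higher in edgeR, beside 1.36% of all tested genes (Mrc1, Siglec1, C1qc and Cd163, named after their values were seen). Summed CPM of 13 erythroid markers was 585 to 855 in Becn1f/f and 442 to 569 in Becn1f/f;Pf4-iCre libraries, with all 13 below 0 and 7 called lower, beside 0.938% of all tested genes. The macrophage marker Timd4 fell below the filter. For neutrophil markers the sums overlapped, at 14157 to 19032 and 11531 to 14757 CPM, with 14 of 16 below 0. Sums also overlapped for B cell markers (11 of 12 below 0) and for mast cell, basophil and eosinophil markers (10 of 12 below 0). Of all 12256 tested genes 6677 were below 0. The part of these cells in the Notch2 values was not tested.

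Notch1 went the other way in sign, with 282, 306 and 370 CPM in Becn1f/f and 313, 296 and 300 CPM in Becn1f/f;Pf4-iCre libraries. The Becn1f/f;Pf4-iCre values fell inside the Becn1f/f range. The means were 319 ± 45.6 and 303 ± 9.33 CPM (SD, n = 3) and the log2 fold change was -0.08 (SE 0.14), which became 0.04 without Becn1f/f replicate 3, the highest library. Markers of T and NK cells, where Notch1 acts, were scarce, with a summed CPM of 30.7 to 44.5 in Becn1f/f and 34.9 to 46.6 in Becn1f/f;Pf4-iCre libraries over 11 genes. The FPKM ratio of Notch2 to Notch1 was 1.83, 1.68 and 1.48 in the Becn1f/f libraries and 2.23, 2.06 and 1.87 in the Becn1f/f;Pf4-iCre libraries, so Notch2 exceeded Notch1 in 6 of 6 libraries. The transcripts of Notch1 and Notch2 shared no stretch of 50 bases, so reads of that length could not be split between them.

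**Figure D2:**
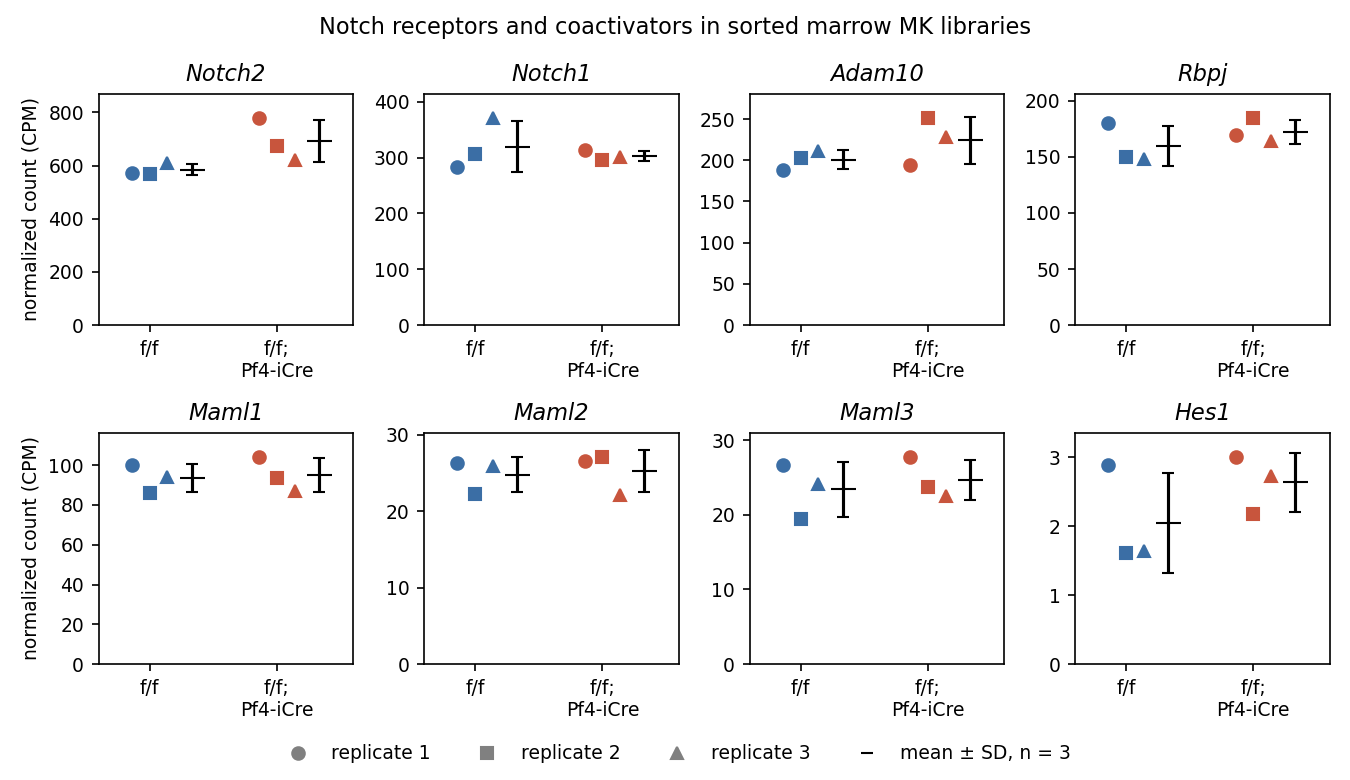
Normalized counts (CPM, linear axes from 0) of each of the 8 genes in the 3 Becn1f/f libraries (blue, f/f) and the 3 Becn1f/f;Pf4-iCre libraries (red), with a marker shape for each replicate number and black bars for mean ± SD. Notch2 is the only panel in which the groups do not overlap.

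Adam10, which sheds the receptor's outer part after ligand binding, had 188, 203 and 211 CPM in Becn1f/f and 194, 251 and 228 CPM in Becn1f/f;Pf4-iCre libraries. The groups overlapped through Becn1f/f;Pf4-iCre replicate 1, which lay between the lowest and the middle control. The means were 201 ± 11.5 and 224 ± 28.3 CPM (SD, n = 3), a log2 fold change of 0.16 (SE 0.14), which was 0.07 without Becn1f/f;Pf4-iCre replicate 2 and 0.26 without Becn1f/f;Pf4-iCre replicate 1. Across all tested genes the fold change ran with GC content (Spearman's rho = -0.34 over 12068 genes, which are not independent replicates), and Adam10 is GC-poor at 42.1%. With the trend of each library along GC content and length removed, the log2 fold change of Adam10 was 0.06. Its FPKM was 1.56 to 1.86 times that of Adam17, a related protease that can also cut Notch receptors, in every library.

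Rbpj, through which the receptors reach DNA, had 180, 150 and 148 CPM in Becn1f/f and 169, 184 and 164 CPM in Becn1f/f;Pf4-iCre libraries. The groups overlapped because of Becn1f/f replicate 1, the highest control. The means were 159 ± 17.8 and 172 ± 10.7 CPM (SD, n = 3), a log2 fold change of 0.11 (SE 0.13). That value was 0.22 without Becn1f/f replicate 1, 0.07 without Becn1f/f replicate 2, 0.06 without Becn1f/f replicate 3 and 0.06 without Becn1f/f;Pf4-iCre replicate 2. Rbpj is GC-poor as well, at 43.7%, and its log2 fold change was 0.03 with the GC and length trend taken out.

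The letters TGGGAA, the core that Rbpj is known to recognise, were searched on both strands (reverse TTCCCA) in RefSeq promoter windows of GRCm38.p6, from 250 bases before to 50 after each annotated start. The table held 9 starts for 7 of the genes, with none for Hes1. The letters were found at 4 of the 9 starts, in Rbpj, Maml2 and Maml3, beside 25.6% of all 32851 starts. The windows of the 2 Rbpj starts overlap, so the match 65 bases before the first start is the same site as the one 205 bases before the second and was counted at both. Rbpj is shown because it was the only one with 2 matches at a start, at 149 and 65 bases before it. The sequence is the 250 bases before the first Rbpj start on the forward strand, chr5:53590096-53590345 of GRCm38.p6, with both matches in capitals. A match of letters is a description and not a bound site.

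Rbpj promoter: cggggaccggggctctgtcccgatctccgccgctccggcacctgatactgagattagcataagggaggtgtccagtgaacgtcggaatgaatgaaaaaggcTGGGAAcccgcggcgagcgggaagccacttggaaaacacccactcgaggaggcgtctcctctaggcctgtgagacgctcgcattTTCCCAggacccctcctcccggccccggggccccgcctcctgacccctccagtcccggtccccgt

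The Mastermind coactivators, which bridge the receptor's intracellular part and Rbpj to histone acetyltransferases, differed little between the genotypes. Maml1 had 99.9, 86.0 and 94.2 CPM in Becn1f/f and 104, 93.6 and 87.2 CPM in Becn1f/f;Pf4-iCre libraries, with means of 93.4 ± 6.99 and 94.9 ± 8.42 CPM (SD, n = 3). Maml2 had 26.3, 22.2 and 25.9 CPM in Becn1f/f and 26.5, 27.0 and 22.03 CPM in Becn1f/f;Pf4-iCre libraries, with means of 24.8 ± 2.24 and 25.2 ± 2.74 CPM (SD, n = 3). Maml3 had 26.6, 19.4 and 24.1 CPM in Becn1f/f and 27.7, 23.8 and 22.5 CPM in Becn1f/f;Pf4-iCre libraries, with means of 23.4 ± 3.66 and 24.7 ± 2.70 CPM (SD, n = 3). In all 3 genes the genotypes overlapped and the difference of the means was smaller than either SD.

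The log2 fold changes were 0.02 for Maml1 (SE 0.13), 0.02 for Maml2 (SE 0.15) and 0.08 for Maml3 (SE 0.16), and each turned below 0 when Becn1f/f replicate 2 was left out, to -0.03, -0.05 and -0.04. Without Becn1f/f;Pf4-iCre replicate 1 the values were -0.05, -0.01 and -0.01, and Maml2 was at -0.03 without Becn1f/f;Pf4-iCre replicate 2 and at -0.04 with the GC and length trend taken out. Per transcript length Maml1 was the main Mastermind gene, at 4.44 to 5.24 times the FPKM of Maml3 and 9.85 to 11.03 times that of Maml2 in the 6 libraries. The ratio to Maml2 depends on the length used, since mean CPM was 25.0 for Maml2 and 24.0 for Maml3. The longest GENCODE M21 transcript of Maml2 (6404 bases) is shorter than that of Maml3 (8288 bases), although Maml2 had the lower FPKM. The lengths behind the deposited FPKM are not given in the sources used here. No stretch of 50 bases was shared among the 3 genes.

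Hes1, a transcriptional repressor induced by Notch signals in many tissues, rested on few reads, with 46, 28 and 29 counts in Becn1f/f and 50, 36 and 46 counts in Becn1f/f;Pf4-iCre libraries. These were 2.88, 1.61 and 1.64 CPM in Becn1f/f and 3.00, 2.17 and 2.73 CPM in Becn1f/f;Pf4-iCre libraries. The groups overlapped, since Becn1f/f replicate 1 exceeded all but 1 of the Becn1f/f;Pf4-iCre libraries. The means were 2.04 ± 0.73 and 2.63 ± 0.42 CPM (SD, n = 3) and the log2 fold change was 0.37 (SE 0.30), with 0.70 when Becn1f/f replicate 1 was left out and 0.23 when either Becn1f/f replicate 2 or replicate 3 was. The spread of Hes1 within genotypes was larger than that of 84.8% of tested genes, whereas the other 7 genes lay between 15.1% and 47.3%.

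Of the 8 genes 7 had a log2 fold change above 0, beside 45.5% of all tested genes, and their median was 0.10 beside -0.02 for all 12256 tested genes. None of the 8 reached a fold of 1.5, and none was therefore called by the thresholds of the study (a fold of 1.5 and an unadjusted P under 0.05), which called 2.3% of tested genes. CPM did not overlap for 1 of the 8, beside 10.6% of tested genes. Notch2 did not overlap with any 1 library left out either, which follows from its separation with all libraries and adds no support. The count varied. Fewer libraries overlap less readily, so a rise in such fits is no result about these genes. The count was 3 without Becn1f/f replicate 1 (Notch2, Rbpj and Hes1). It was 2 without Becn1f/f;Pf4-iCre replicate 1 (Notch2 and Adam10) or replicate 3 (Notch2 and Maml2). The share of all tested genes in these fits was not computed. On the FPKM scale with all libraries the count was 0, beside 10.2% of tested genes. Of the 8 genes 4 were above 0 without Becn1f/f replicate 2 and 4 without Becn1f/f;Pf4-iCre replicate 1, against 6 to 8 without any of the other 4 libraries. The median stayed above 0 in each of these, at 0.02 to 0.16 with 1 library left out.

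**Figure D3:**
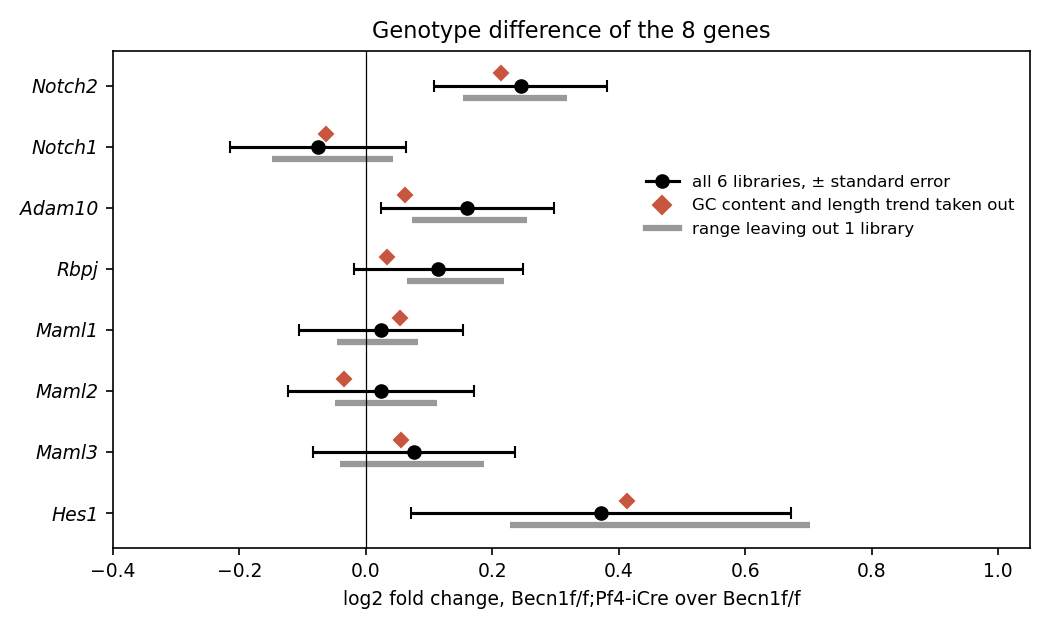
Log2 fold change of Becn1f/f;Pf4-iCre over Becn1f/f for the 8 genes, with black points and bars for the edgeR fit to all 6 libraries ± standard error, red diamonds for the fit with the GC and length trend taken out, and grey bars for the range over 6 fits that each leave out 1 library. Points, diamonds and grey bars of Notch2, Adam10, Rbpj and Hes1 stay above 0, while the standard error bar of Rbpj reaches below it. The grey bars of Notch1 and the 3 Mastermind genes cross 0.

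The rest of the pathway was read from 10 lists by role with 69 genes, of which 68 were in the table and 60 lay above the filter. None of the 60 was called by edgeR's quasi-likelihood test or by DESeq2, and 2 had an unadjusted P under 0.05 by each tool. Both were higher in Becn1f/f;Pf4-iCre libraries and none was lower, beside 6.31% of all tested genes in edgeR (3.92% higher and 2.39% lower). The lowest Benjamini-Hochberg adjusted p among the 60 in edgeR was 0.52, and 0.0408% of all tested genes had one under 0.05. Of these genes 38 had a log2 fold change above 0 and 22 below, with a median of 0.05 and a range from -0.55 to 0.52. The 2 genes were Aph1c, a gamma-secretase subunit, and Kat2b, a histone acetyltransferase.

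Aph1c had 19.3, 15.8 and 12.6 CPM in Becn1f/f and 23.6, 23.8 and 20.6 CPM in Becn1f/f;Pf4-iCre libraries. Its groups did not overlap (log2 fold change 0.52, SE 0.17, edgeR unadjusted P = 0.011, adjusted p = 0.52). Aph1c is uncertain as a single gene, since 18.4% of its stretches of 50 bases also occur in its paralog Aph1b, whose log2 fold change was 0.33 (SE 0.19). Kat2b had 64.5, 60.1 and 66.9 CPM in Becn1f/f and 75.4, 93.1 and 80.9 CPM in Becn1f/f;Pf4-iCre libraries (log2 fold change 0.38, SE 0.13, edgeR unadjusted P = 0.014, adjusted p = 0.55), again without overlap. CPM of 4 of the 60 genes lay wholly higher and of 2 wholly lower in Becn1f/f;Pf4-iCre libraries, beside 5.42% and 5.18% of tested genes. Named after their values were seen, the others were Adam17 and the corepressor Ctbp2 (higher) and the ubiquitin ligases Dtx1 and Dtx4 (lower).

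Calls among the 60 genes varied with the library left out, as did calls over all tested genes. Without Becn1f/f replicate 1, Aph1c (log2 fold change 0.68) and Cdkn1a (0.62) passed both thresholds, beside 398 of all 12386 tested genes. Without Becn1f/f replicate 2 Dtx1 (-0.70) did, beside 410 of all 12406. Adjusted p-values in edgeR were 0.19, 0.50 and 0.59 for Aph1c, Cdkn1a and Dtx1. With any of the other 4 libraries left out, none was called. Pathway genes with an unadjusted P under 0.05 in edgeR numbered 6 without Becn1f/f replicate 1, beside 1241 of all 12386 tested genes. They numbered 6 without Becn1f/f;Pf4-iCre replicate 1 (beside 1008 of 12386) and 4 without Becn1f/f replicate 2 (beside 824 of 12406). Without Becn1f/f;Pf4-iCre replicate 3 they numbered 3 (beside 632 of 12409). They numbered 1 without Becn1f/f replicate 3 (beside 705 of 12370) and 1 without Becn1f/f;Pf4-iCre replicate 2 (beside 398 of 12393). With the GC and length trend taken out they numbered 5, beside 974 of 12256.

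**Figure D4:**
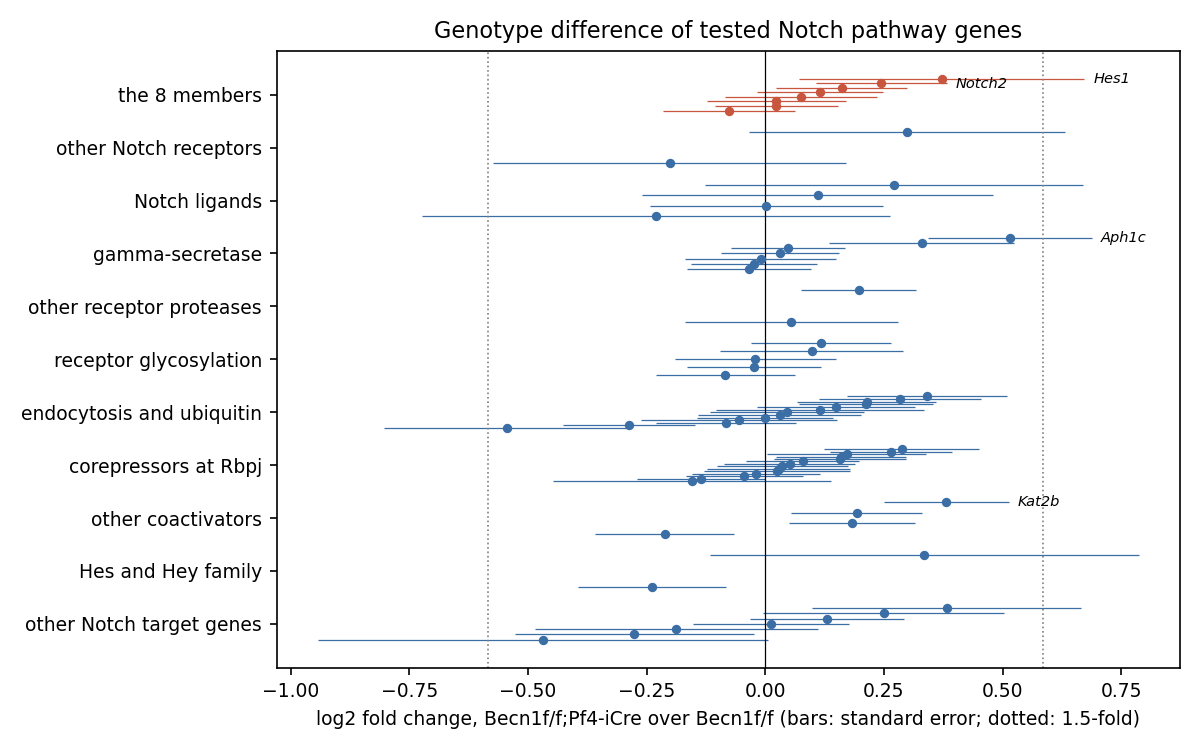
Log2 fold change of Becn1f/f;Pf4-iCre over Becn1f/f with its standard error for the 8 genes (red) and 60 other tested Notch pathway genes (blue), grouped by role, with dotted lines at a fold of 1.5. All points lie between the dotted lines, from -0.55 for Dtx1 to 0.52 for Aph1c.

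The other receptors and the ligands were scarce. Notch3 had 0.815 to 1.47 CPM (log2 fold change 0.30, SE 0.33) and Notch4 0.575 to 1.13 CPM (-0.20, SE 0.37), so Notch1 and Notch2 made up nearly all receptor RNA measured. Of 7 listed ligands Dll3 was not in the table and Dlk1 and Dlk2 fell below the filter. Jag2 was the most abundant ligand at 3.48 FPKM, with 20.3, 14.8 and 6.66 CPM in Becn1f/f and 24.9, 17.4 and 8.08 CPM in Becn1f/f;Pf4-iCre libraries. Its range within each genotype was far wider than the difference between them (log2 fold change 0.27, SE 0.40). Dll4 (0.11, SE 0.37), Jag1 (0.00, SE 0.25) and Dll1 (-0.23, SE 0.49) likewise differed by less than their standard errors.

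Receptor processing genes were well measured. Among 7 gamma-secretase genes Psenen had the highest level, 98.8 FPKM, with a log2 fold change of -0.01 (SE 0.16), and 4 of the 7 were above 0. Furin, which cuts Notch receptors on their way to the surface, stood at 53.9 FPKM (0.05, SE 0.22), above Adam10 in replicate 1 of each genotype and below it in the other 4 libraries. Lfng, a sugar transferase that modifies Notch receptors, led 5 glycosylation genes at 18.6 FPKM (0.10, SE 0.19), and 2 of those 5 were above 0. Of 13 tested genes of endocytosis and ubiquitination 8 were above 0, and Neurl3, a ubiquitin ligase, was the most abundant at 77.7 FPKM (0.15, SE 0.17).

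In the nucleus, 10 of 14 corepressor genes were above 0, with Ctbp1 the most abundant at 106 FPKM (-0.13, SE 0.13). The acetyltransferase Ep300 led the 4 other coactivators at 37.8 FPKM (0.19, SE 0.14), and 3 of the 4 were above 0. Of the 6 other Hes and Hey genes only Hes6 and Hey1 lay above the filter, with Hes6 at 30.0 FPKM (-0.24, SE 0.16). Hes1 at 2.06 FPKM was thus below Hes6 in level. Cdkn1a, a cell cycle inhibitor that Notch can induce, led 7 tested target genes at 150.5 FPKM (0.38, SE 0.28), and 4 of the 7 were above 0. None of these values passed edgeR's test. The lowest adjusted p was 0.82 among the corepressors, 0.55 among the other coactivators (Kat2b), 0.90 among the Hes and Hey genes and 0.91 among the targets.

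Genes whose profile was most like that of a member were found by the root mean square difference of log2 CPM, centred over the 6 libraries, among 12255 other genes. For Notch2 they were Zmiz1 (0.028) and Dapk1 (0.028), where the median gene differed by 0.253. For Notch1 they were Ctc1 (0.024) and Trrap (0.030), with a median of 0.229. Hes1 had no profile as close, with Csrnp2 at 0.103 and Fzd5 at 0.128 and a median of 0.414. Zmiz1 had 261, 273 and 277 CPM in Becn1f/f and 362, 319 and 286 CPM in Becn1f/f;Pf4-iCre libraries, the same order of the Becn1f/f;Pf4-iCre libraries as Notch2. Zmiz1 was chosen for its likeness over these same 6 libraries, so the shared order follows from the choice.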

How the data were processed

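RNA-seq of sorted bone marrow MKs was analysed for 3 Becn1f/f and 3 Becn1f/f;Pf4-iCre libraries, grouped by GEO's titles. The authors used HISAT as aligner after a read-quality and adapter filter. The submitters' processing notes also name Bowtie2 and GRCm39 (mm39), and the counting tool is not given in the sources used here. The authors deposited estimated counts, which are not whole for 10.3% to 11.3% of genes per library, and FPKM values, which adjust for library size and transcript length. Another 16 per-sample columns were not used, 4 of them of a library that matched no sample, and 8 columns of group means that were not used.

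Rounded estimated counts passed edgeR's expression filter for 12256 genes and were TMM scaled. The test was the quasi-likelihood one of edgeR 4.0.16 (R 4.3.3, genotype as the only term, Benjamini-Hochberg adjustment). Calls used a fold of 1.5 and an unadjusted P of 0.05. SE is the size of the log2 fold change divided by the root of F. Alternatives were DESeq2 1.42.0, other scalings and filters, a replicate block, limma 3.58.1 on log2(FPKM + 1) or log2(FPKM + 0.1), library trends with GC content and length taken out (GENCODE M21 transcripts, 98.5% of tested genes matched), and leaving out each library. The fit was tested on simulated data. The spread among 3 libraries per genotype and, for genes with few reads, counting error limit the precision.

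The 8 genes and all gene lists were chosen with earlier results of these data known. Named were the 8 genes, Becn1, both other receptors, each ligand above the filter, the gene of highest FPKM in each list, each pathway gene with an unadjusted P under 0.05, and for Notch1, Notch2 and Hes1 the 2 closest profiles. Replicates of a genotype correlated at 0.98 to 0.99 on the log2 scale and differed by more than sampling noise, so all 6 were kept.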

Additional observations from a re-analysis of the deposited data

How the results depend on the processing

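The median log2 fold change of the 8 genes was above 0 in each of the 16 alternatives with a value (0.06 to 0.10, and 0.02 to 0.16 with 1 library left out), and Becn1 was below 0 in each (-0.19 to -0.14, and -0.20 to -0.08 with 1 library left out), never called. The cause of the following differences was not tested. Genes with an adjusted p under 0.05 numbered 5 in the fit reported, 77 with DESeq2, 8 with upper-quartile scaling, 23 with no filter, 19 with the replicate block, 8 with limma on log2(FPKM + 1) and 0 with the same and no filter (0 to 27 with 1 library left out). Genes called numbered 282 (59.2% higher), 137 with limma on log2(FPKM + 1) (70.1% higher), 121 with no filter on FPKM (72.7% higher) and 5 with the adjusted p as threshold (225 to 410 with 1 library left out, 49.3% higher without Becn1f/f replicate 2). Non-overlapping genes among the 8 numbered 1, 0 in the 3 limma fits on FPKM, and 1 to 3 with 1 library left out. Other Notch pathway genes called numbered 0, and 0 to 2 with 1 library left out.

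Jag1 (0.00) was at -0.0056 with upper-quartile scaling and -0.028 with the GC and length trend taken out, and Psenen (-0.01) at 0.058 with that trend taken out and 0.0034 with the replicate block. With 1 library left out, fold changes spanned 0 for Dll1 (-0.56 to 0.32), Dll4 (-0.23 to 0.38), Jag1 (-0.16 to 0.27), Jag2 (-0.13 to 0.65), Psenen (-0.15 to 0.11), Furin (-0.22 to 0.28), Lfng (-0.16 to 0.25) and Neurl3 (-0.025 to 0.28), and ran from 0.05 to 0.62 for Cdkn1a and from 0.37 to 0.68 for Aph1c.

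Over all tested genes, same-numbered libraries of the genotypes did not deviate together (r = 0.07, -0.27 and 0.19), so the replicate numbers were not taken as pairs. With the replicate block 296 genes were called. In that fit 3 other pathway genes had an unadjusted P under 0.05, beside 699 of all 12256 tested genes. They were Aph1c, Kat2b and Cdkn1a (log2 fold change 0.39, SE 0.17, edgeR unadjusted P = 0.035 for Cdkn1a, whose SE was 0.28 without the block). The counts behind Hes1 (28 to 50 per library) and 3 libraries per genotype limit the smallest difference that could be seen.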

Other observations

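Furin, Cdkn1a and Jag2, picked after their values were seen, were highest in replicate 1 of each genotype, as was Thbs1, which makes up most of the MK marker sum. Furin had 273, 189 and 175 CPM in Becn1f/f and 298, 200 and 164 CPM in Becn1f/f;Pf4-iCre libraries, and Cdkn1a had 272, 230 and 128 CPM in Becn1f/f and 387, 245 and 189 CPM in Becn1f/f;Pf4-iCre libraries. Thbs1 had 4472, 2110 and 2004 CPM in Becn1f/f and 3951, 2775 and 2041 CPM in Becn1f/f;Pf4-iCre libraries. Of the 60 other tested pathway genes 18 (30%) had their highest library at the same replicate number in both genotypes, 11 of them at number 1, beside 28.4% of all tested genes at any number. Of the 8 genes 3 did, all at number 1, where 1393 of all 12256 tested genes also had theirs.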
